A study of Mus musculus with 20 samples.

Results

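The genes described here are 46 interferon response genes, genes whose transcription is known to be switched on by interferons. They were chosen by name, not by a threshold on measured values. All 46 were found among the 49671 genes of the count table and all 46 passed the filter on low counts, which left 13290 genes. By role they comprise 4 sensors of foreign nucleic acid, 4 transcription factors, the 2 genes of the ISG15 system, 10 effectors that act on RNA and 7 other antiviral effectors. The rest are 10 GTPases of the IRG and GBP families, 4 genes of the PARP and DTX3L group and 5 other induced genes.

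RNA was sequenced from 20 libraries of cultured mouse T cells, 5 in each of 4 groups named CD8 week 1, CD8 week 4, CD4 week 1 and CD4 week 3. Cells of the spleen and the inguinal nodes were activated with antibodies to CD3 and CD28 and 1 ng/mL IL-2, and all groups then grew with IL-7 at 10 ng/mL and IL-15 at 50 ng/mL. Activation took 72 h for polyclonal cells of albino B6 mice and 24 h for transgenic cells of the Marilyn-BLITC and MataHari-BLITC lines, and the labels do not tell which source a library had. Expansion then took 4 days in both week 1 groups, 18 days in CD4 week 3 and 25 days in CD8 week 4, and every library came from cells sorted as CD44+ and CD62L+ to a purity above 97%. All groups share the cytokines and the sort, and the labels name no interferon treatment. The study concerned long culture in both cytokines and the properties of central and stem memory T cells. No label ties a library to an animal or a culture. The p-values below set differences between groups against the spread among these samples, and that spread may be technical.

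Library totals ran from 13.3 to 28.3 M counts, and levels are given as CPM (counts-per-million) on library sizes scaled by TMM factors. No pair of replicates was alike within sampling noise (chi-square per degree of freedom of 5.90 to 141 over 40 pairs). The summed level of 5 T cell markers lay between 1831 and 2670 CPM over all libraries. The summed level of Cd8a and Cd8b1 was 1018 CPM or more in the CD8 libraries and 30.8 CPM or less in the CD4 libraries, so the labelled cell types were borne out by their defining genes. In both week 1 groups 1 library stood apart, with a gap to the nearest other library above 0.71 of the range of its group. CD4 week 1 replicate 2 did so for 18 of the 46 genes and CD8 week 1 replicate 3 for 30, and results that rest on either are given with and without it. In how many of all genes these libraries stood apart was not counted. Whether the gaps are particular to the set is therefore not known.

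Interferons are secreted proteins that warn cells of infection. Type I and type III interferons act through receptors that pass the signal by the kinases Jak1 and Tyk2 to a complex that includes Stat2 and Irf9 and binds the interferon-stimulated response element (ISRE) in gene promoters. Interferon gamma, a product of activated T cells, signals through Jak1 and Jak2 and acts on another promoter element, called GAS. The induced genes encode sensors of viral RNA and DNA, enzymes that block viral RNA and proteins, and factors that feed back on the pathway.

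Promoter sequences of 32 of the 46 genes were found in the RefSeq table for GRCm38.p6. The 14 others, Usp18, Zbp1, Oas2, Ifi27l2a, Mx1, Gbp6, Mx2, Iigp1, Rtp4, Dhx58, Parp9, Gbp9, Gbp4 and Parp14, are named only. In the 250 bases before the start, 15 of these 32 genes (46.9%, 95% Wilson interval 30.9 to 63.6%) held the ISRE-like letters GAAANNGAAA on either strand. Of all 27025 genes in the table, 3.46% held them. A GAS-like match, TTCNNNGAA, was present in 9 of the 32 (28.1%) and in 8.13% of all genes. Matches of both kinds overlapped in Bst2 and in no other promoter of the set. A match describes letters and was not tested as a binding site. The 5 sequences below hold the ISRE-like letters, printed in capitals, and belong to genes that were called in CD4 cells over time or were among the 6 with the largest ratio of CD4 week 1 replicate 2 to the rest of its group. Gbp2, Oas3 and Ifit3 hold the letters too and are described below, but were picked after their values were seen and are not shown. Coordinates are those of GRCm38.p6, and each sequence gives the 250 bases before the start, read 5′ to 3′ in the direction of the gene.
Isg15 (chr4:156200819-156201068, minus strand): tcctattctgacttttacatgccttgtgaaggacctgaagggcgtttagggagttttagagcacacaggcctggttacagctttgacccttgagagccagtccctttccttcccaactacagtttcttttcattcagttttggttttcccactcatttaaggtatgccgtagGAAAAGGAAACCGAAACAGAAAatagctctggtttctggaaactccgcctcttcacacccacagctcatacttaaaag
Stat2 (chr10:128270248-128270497, plus strand): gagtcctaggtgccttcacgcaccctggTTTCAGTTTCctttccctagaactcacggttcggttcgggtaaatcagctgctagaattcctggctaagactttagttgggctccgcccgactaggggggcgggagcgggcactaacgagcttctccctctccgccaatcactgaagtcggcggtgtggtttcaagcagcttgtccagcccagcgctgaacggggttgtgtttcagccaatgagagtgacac
Igtp (chr11:58199306-58199555, plus strand): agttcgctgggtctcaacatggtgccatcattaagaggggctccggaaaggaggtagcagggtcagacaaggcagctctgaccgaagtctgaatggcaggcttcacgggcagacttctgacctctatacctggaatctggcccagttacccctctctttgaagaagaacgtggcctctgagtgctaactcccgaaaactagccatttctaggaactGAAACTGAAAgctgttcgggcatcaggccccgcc
Rsad2 (chr12:26456453-26456702, minus strand): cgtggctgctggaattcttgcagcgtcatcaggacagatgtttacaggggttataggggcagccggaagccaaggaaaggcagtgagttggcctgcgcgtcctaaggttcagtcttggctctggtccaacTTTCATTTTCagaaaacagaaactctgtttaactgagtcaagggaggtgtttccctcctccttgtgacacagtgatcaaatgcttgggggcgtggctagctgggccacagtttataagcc
Oas1a (chr5:120907526-120907775, minus strand): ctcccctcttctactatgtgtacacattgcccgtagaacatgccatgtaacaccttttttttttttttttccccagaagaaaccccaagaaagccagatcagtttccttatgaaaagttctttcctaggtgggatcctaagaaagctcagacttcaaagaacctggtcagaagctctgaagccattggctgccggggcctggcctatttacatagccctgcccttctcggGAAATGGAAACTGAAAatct
Isg15 held 3 matches, which overlap one another and begin 78 to 66 bases before the start. Oas1a held 2 overlapping matches within 20 bases of its start. Igtp had 1 match at 34 bases and Rsad2 1 at 120 bases before the start, while the match of Stat2 lay 222 bases before it. Of the 39 promoter stretches of the set in the RefSeq table, 32 matched a transcript start in the gene annotation. That of Stat2 did not, so its distance holds for the RefSeq start only. Bst2 was also among those without a match.

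The interferon response genes varied more among the 5 CD4 week 1 libraries than among the libraries of any other group. The highest library stood a median of 13.8 times above the lowest in CD4 week 1, 2.72 times in CD8 week 1, 2.65 times in CD4 week 3 and only 1.71 times in CD8 week 4 (CPM plus 0.1). In CD4 week 1 this ratio exceeded 10 for 29 of the 46 genes, against 9, 13 and none in CD8 week 1, CD4 week 3 and CD8 week 4. CD4 week 1 replicate 2 was the highest library of its group for 45 genes, the exception being Irf1. Each of the 46 genes was over 2 times the median of the other 4 libraries there, by 2.05 times (Irf1) to 257 times (Ifi44) with a median of 6.78 times. Replicate 1 was next, with 43 genes above the median of the others and a median ratio of 2.30. Replicates 4 and 5 were the lowest libraries for 34 and 12 genes, with median ratios of 0.268 and 0.271. The highest and the lowest values of CD4 cells at week 1 thus came from libraries of the same label.

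**Figure D1:**
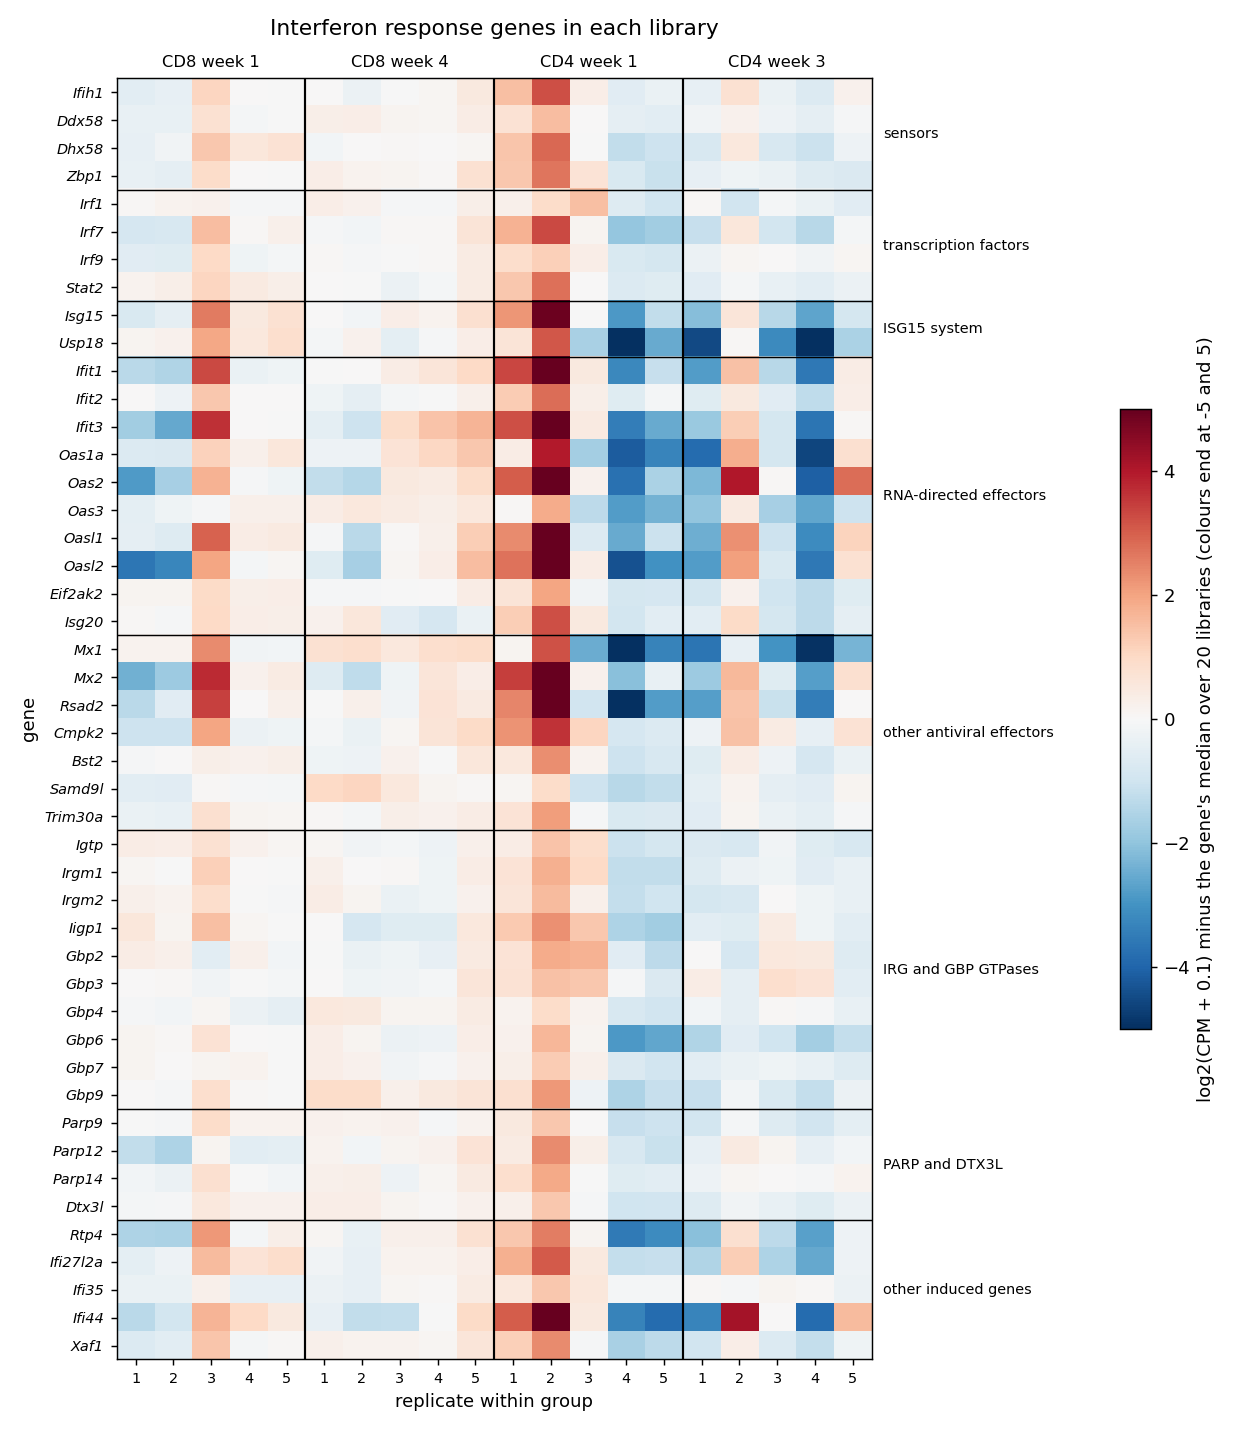
Heat map of the 46 genes (rows, by role) in the 20 libraries (columns, by group and replicate); colour is log2(CPM + 0.1) minus the median of the gene over all libraries. The column of CD4 week 1 replicate 2 is the darkest red, highest in its group for 45 genes, and replicates 4 and 5 of the same group are mostly blue.

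Each other group also had a library in which most of the genes were highest. CD8 week 1 replicate 3 was highest for 41 of the 46 genes, with a median ratio to the other 4 libraries of 2.14. CD4 week 3 replicate 2 was highest for 35 genes at a median ratio of 1.92, and CD8 week 4 replicate 5 for 35 genes at 1.33. The share of all genes that were highest in these libraries, or in CD4 week 1 replicate 2, was not counted. CD8 week 4 was the most even group, with a median coefficient of variation of 20.9%, against 44.6% at week 1 of CD8 cells and 42.3% and 110% in CD4 cells at week 3 and week 1.

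Markers of other cell types were compared in the library that stood apart. In CD4 week 1 replicate 2 the 6 macrophage and monocyte markers summed to 1.46 CPM, against a median of 0.0403 CPM in its group and no more than 0.127 CPM in any other group. Adgre1, which encodes the macrophage protein F4/80, was at 1.41 CPM of this sum. Csf1r, Lyz2, Mertk and C1qa had no count in any CD4 week 1 library. The 5 NK cell markers, some of which activated T cells also express, summed to 24.5 CPM there, against a group median of 2.28 CPM and 159 to 346 CPM in CD8 week 1. The 6 B cell markers summed to 0.686 to 1.41 CPM over CD4 week 1, the 6 dendritic cell markers to at most 0.250 CPM and the 3 granulocyte markers to at most 0.188 CPM. In CD8 week 1 replicate 3 the NK cell markers were also the highest of their group, at 346 CPM, while the macrophage markers had no count. In CD4 week 3 replicate 2 the erythroid markers summed to 18.9 CPM against a group median of 0.6 CPM. The part of these cells in the interferon response values was not tested.

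In CD4 cells, 4 of the 46 genes fell between week 1 and week 3, none rose, and 42 did not pass the test. The 4 were Zbp1, Isg15, Stat2 and Igtp. Of all 13290 genes tested, 7.67% rose and 8.8% fell in this comparison. The share of the 46 genes that fell was thus close to that of all genes. The median log2 fold change of the 46 genes was -1.33, with 45 values below 0, against 0.01 over all genes tested. With limma-voom and its quality weights, which count libraries that stray from their group for less, the median was -0.29, with 11 of the 46 values above 0. At an unadjusted p under 0.05, 29 genes were lower and none was higher. The share of all genes under this unadjusted threshold was not counted, here or in the comparisons below. In bulk RNA, fewer cells with a transcript and less transcript per cell cannot be told apart.

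Zbp1 encodes a sensor of nucleic acids in the Z form that can start inflammatory cell death. Its level was 272, 693, 174, 63.2 and 49.96 CPM in replicates 1 to 5 of CD4 week 1, and 80.3, 92.5, 85.5, 69.1 and 65.2 CPM in CD4 week 3. Replicates 1 to 3 of week 1 lay above every week 3 library and replicates 4 and 5 below every one of them. The level fell 3.19-fold (log2 change of -1.67, SE 0.50, edgeR adjusted p = 0.0304). In the CD8 groups Zbp1 was at 82.9, 78.7, 204, 108 and 107 CPM in week 1 and 134, 122, 118, 112 and 183 CPM in week 4.

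Isg15 encodes a ubiquitin-like protein that is attached to other proteins during the interferon response. It stood at 44.5, 287, 9.45, 1.21 and 4.08 CPM in replicates 1 to 5 of CD4 week 1 and at 2.099, 14.8, 3.64, 1.46 and 5.24 CPM in week 3. Replicates 1 and 2 of week 1 were above all week 3 libraries, and replicate 4 was below all of them. The fitted fall was 12.7-fold (log2 change of -3.66, SE 1.12, edgeR adjusted p = 0.0326). CD8 week 1 held 5.55, 6.91, 59.3, 13.4 and 16.6 CPM, with replicate 3 far above the rest, and CD8 week 4 9.75, 8.79, 12.1, 10.8 and 16.6 CPM. Stat2 encodes a transcription factor that acts downstream of type I interferon. Its levels were 259, 698, 105, 63.2 and 68.3 CPM in CD4 week 1 and 68.8, 96.6, 78.6, 71.8 and 84.2 CPM in week 3, a 2.98-fold fall (log2 change of -1.58, SE 0.48, edgeR adjusted p = 0.0329). Replicates 1 to 3 of week 1 exceeded every week 3 library, and replicates 4 and 5 were below each of them. In CD8 cells the range was narrower, at 116, 125, 215, 138 and 126 CPM in week 1 and 103, 102, 82.8, 96.4 and 137 CPM in week 4.

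Igtp encodes Irgm3, a GTPase of the immunity-related family that acts on membranes around pathogens. It was at 598.6, 1231, 849.8, 219.7 and 249.1 CPM in CD4 week 1 and 278, 263, 414, 303 and 267 CPM in week 3, 2.06-fold lower (log2 change of -1.05, SE 0.34, edgeR adjusted p = 0.0408). Replicates 1, 2 and 3 of week 1 lay above all week 3 libraries and replicates 4 and 5 below them. In CD8 cells Igtp was at 600.5, 588, 775, 531 and 493 CPM in week 1 and 497, 404, 433, 391 and 557 CPM in week 4.

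None of the 4 calls was kept when CD4 week 1 replicate 2 was left out, and with every library kept but only the 2 CD4 groups in the fit no gene fell either, at 4.45% of all genes. Without that replicate, 0 of the 46 genes rose and 0 fell, where 5.86% of all genes rose and 6.16% fell, and the median log2 fold change of the set was -0.47. At an unadjusted p under 0.05 there were then 2 genes lower and none higher. Zbp1 was at -0.83 (adjusted p = 0.151), Isg15 at -1.44 (adjusted p = 0.267), Stat2 at -0.63 (adjusted p = 0.187) and Igtp at -0.65 (adjusted p = 0.147) on the log2 scale. Other single libraries moved the count as well. The number of genes that fell was 0 without CD4 week 3 replicate 1, 3, 4 or 5, where 5.61%, 3.84%, 3.84% and 4.72% of all genes fell. It was 3 without CD4 week 1 replicate 1 or 3 (all genes 8.37% and 4.71%). It was 17 without CD4 week 3 replicate 2 (all genes 14.6%), and 22 or 19 without CD4 week 1 replicate 4 or 5 (all genes 8.73% and 7.11%). Without replicates 1 and 2 of CD4 week 1 together the median log2 fold change was 0.25, none of the genes fell, and Samd9l, a translation inhibitor, was higher in week 3 (log2 fold change 1.02, SE 0.25, adjusted p = 0.0187). Of all genes 5.6% were then higher and 6.48% lower. DESeq2 called 18 genes lower, with the 4 among them, where it called 11.3% of all genes lower. Limma-voom with quality weights called 2, Ifi27l2a and Eif2ak2, with none of the 4 among them, where it called 19.7% of all genes lower.

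**Figure D2:**
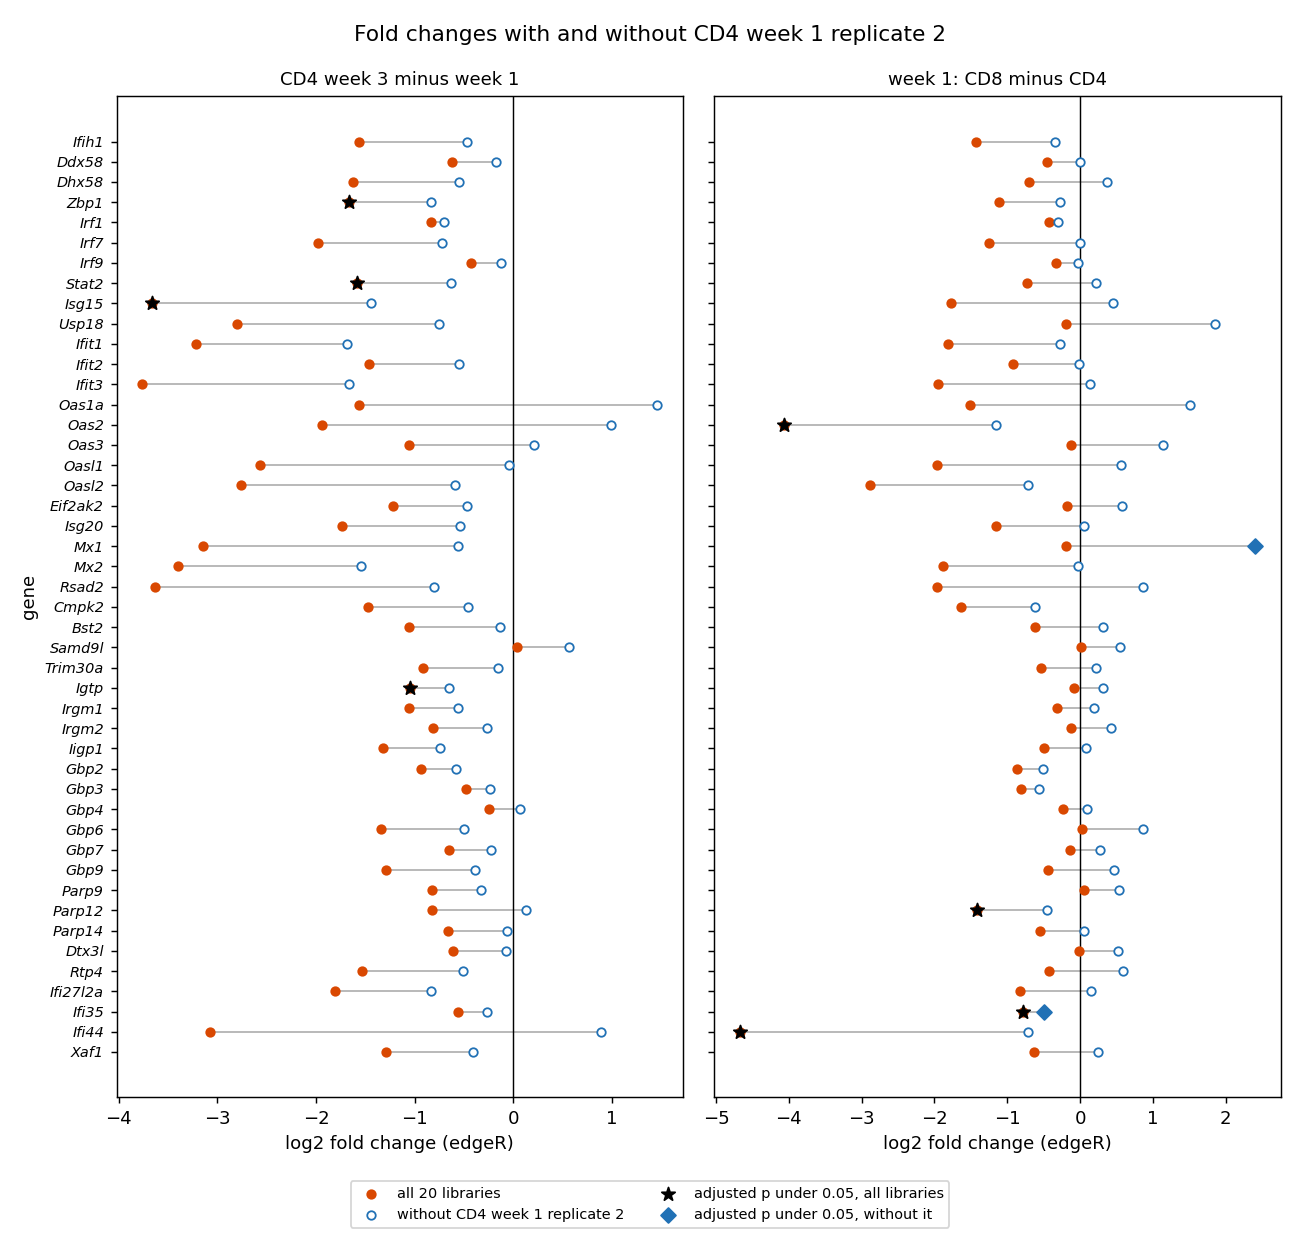
Log2 fold change of each gene (rows) from edgeR with all libraries (filled) and without CD4 week 1 replicate 2 (open), for CD4 week 3 minus week 1 (left) and CD8 minus CD4 at week 1 (right); stars and diamonds mark adjusted p under 0.05. The 4 calls on the left have no counterpart without that library, where the median moves from -1.33 to -0.47, and on the right Ifi35 is called in both fits.

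The 6 genes with the largest ratio of CD4 week 1 replicate 2 to the other libraries were Ifi44, Rsad2, Oas2, Oas1a, Oasl1 and Mx1. Ifi44, an antiviral protein gene, stood at 11.5, 249.8, 1.9, 0.0403 and 0 CPM in replicates 1 to 5 of CD4 week 1 and at 0.0447, 25.7, 1.33, 0 and 4.18 CPM in CD4 week 3. Rsad2 encodes viperin, an enzyme that makes a nucleotide that ends viral RNA chains. It was at 29.8, 264, 2.799, 0 and 0.708 CPM in CD4 week 1 and at 0.715, 14.9, 2.48, 0.41 and 5.49 CPM in week 3. Oas2, which encodes a sensor of double-stranded RNA that activates RNase L, was at 33.2, 334, 4.599, 0.202 and 1.25 CPM in CD4 week 1 and at 0.759, 64.7, 4.15, 0.137 and 27.8 CPM in week 3. For all 3 genes CD4 week 1 replicate 2 was the highest of the 10 CD4 libraries, and CD4 week 3 replicate 2 was the highest of its own group.

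Oas1a, a relative of Oas2, was at 5.97, 72.01, 1.35, 0.161 and 0.375 CPM in CD4 week 1 and 0.223, 16.2, 2.399, 0.0911 and 8.12 CPM in week 3. Oasl1 encodes a related protein that restrains translation of Irf7. Its levels were 6.43, 48.4, 0.6999, 0.121 and 0.5001 CPM in CD4 week 1 and 0.134, 6.07, 0.514, 0.0456 and 2.66 CPM in week 3. Mx1, which encodes a dynamin-like GTPase, was at 31.9, 265, 5.099, 0.766 and 2.79 CPM in CD4 week 1 and 2.23, 21.98, 3.598, 0.866 and 5.75 CPM in week 3. For each of these 6 genes the week 1 and week 3 libraries overlapped and the fall did not pass the test, with adjusted p from 0.0673 (Mx1) to 0.383 (Oas1a). In CD8 week 1 the same genes were highest in replicate 3, at 4.51 CPM (Ifi44), 58.7 CPM (Rsad2), 13.4 CPM (Oas2), 10.3 CPM (Oas1a), 9.67 CPM (Oasl1) and 149 CPM (Mx1).

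**Figure D3:**
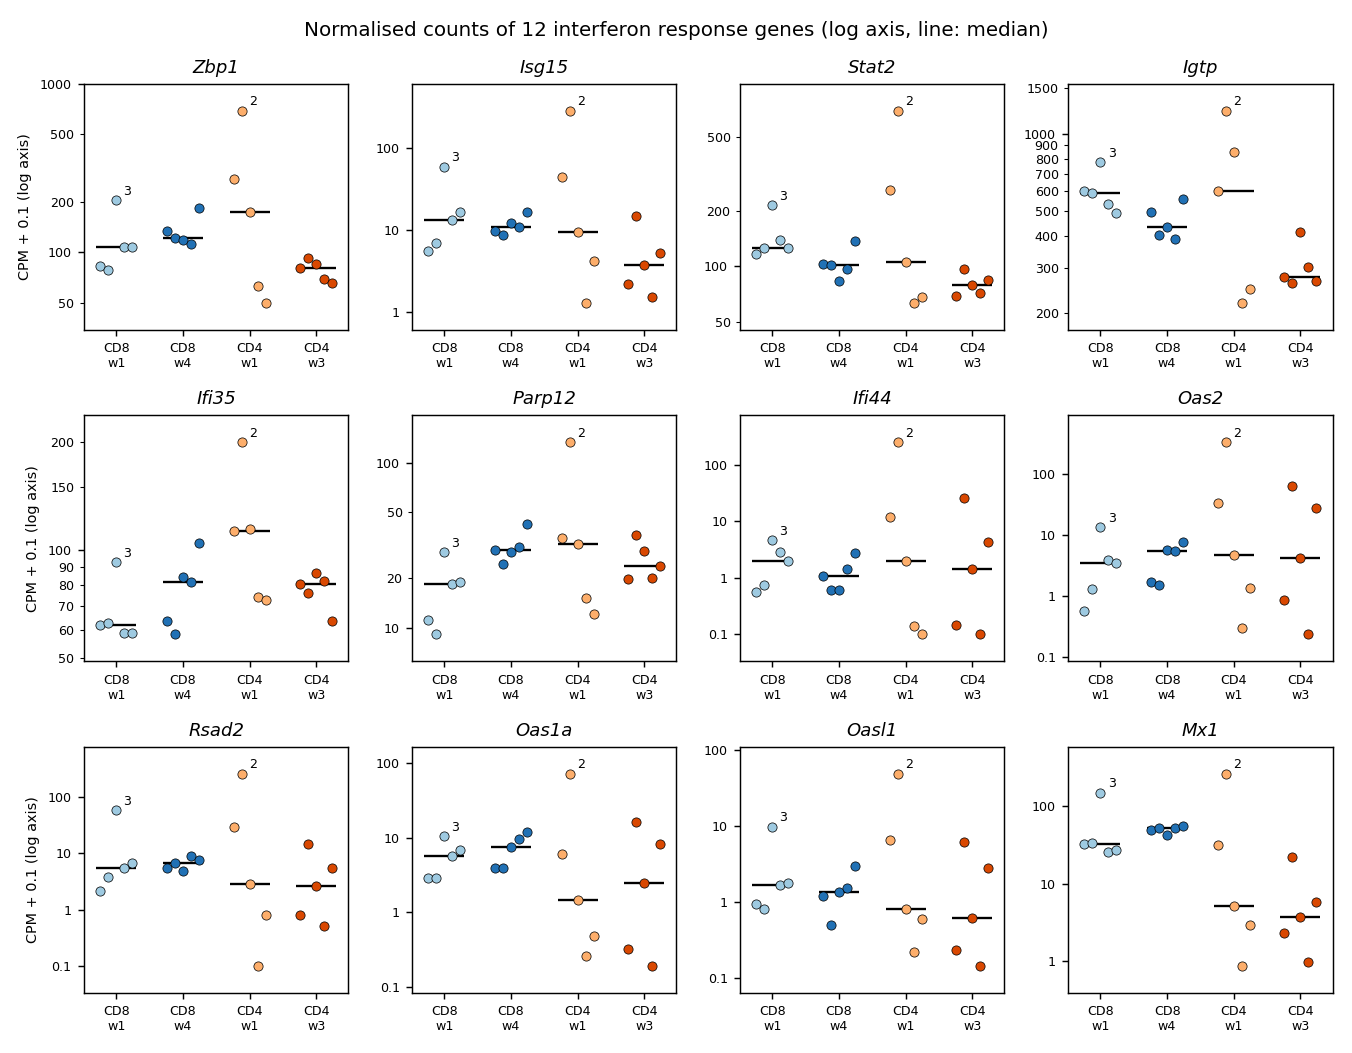
CPM + 0.1 on a log axis for 12 genes in the 20 libraries by group (w, week); each point is a library, drawn from replicate 1 on the left to 5 on the right, and the line is the group median. The points marked 2 and 3 are CD4 week 1 replicate 2, the highest of its group for all 12 genes, and CD8 week 1 replicate 3.

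The size of the rise in CD4 week 1 replicate 2 differed between roles. Its median ratio to the median of the other 4 libraries was 42.3 for the 10 RNA-directed effectors and 38.0 for the 2 genes of the ISG15 system. It was 9.09 for the other induced genes, 8.85 for the other antiviral effectors and 7.21 for the sensors. The transcription factors stood at 4.45, the PARP and DTX3L group at 3.93 and the GTPases at 3.28. These ratios describe 1 library and were not tested. The 6 genes with the largest ratios were at no more than 2.79 CPM in replicates 4 and 5, whereas Igtp was at 219.7 and 249.1 CPM there. Among the 32 genes with a promoter sequence, the median ratio was 5.88 for the 15 with the ISRE-like letters and 6.50 for the 17 without.

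CD4 week 1 replicate 3 had another order of genes. It stood below the median of the other libraries for the RNA-directed effectors, 2.43 times lower by the median gene, and above it for the GTPases, 1.72 times higher. Against replicate 1 of the group, 8 of the 46 genes were higher in replicate 3, and 6 of these were GTPases. Irf1, a transcription factor induced by interferon gamma, was at 290.4, 457, 692, 155 and 120.4 CPM in replicates 1 to 5. Gbp2, a guanylate-binding protein gene, was at 454, 1032, 952, 189 and 113 CPM. Both were therefore high in replicate 3. Irf7, the transcription factor that amplifies type I interferon, was instead at 222, 661, 73.03, 17.5 and 19.9 CPM. Ifit3, one of the RNA-directed effectors, was at 80.7, 407, 11.6, 0.686 and 1.42 CPM. Irf7 and Ifit3 were lower in replicate 3 than in replicates 1 and 2. Of the 9 genes with GAS-like letters 2 were higher in replicate 3 than in replicate 1, and of the 23 without them 4. These 4 genes were chosen after their values were seen. Reads that map to several GBP, IRG, OAS or IFIT copies were not counted, so levels of single copies in these families are uncertain.

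**Figure D4:**
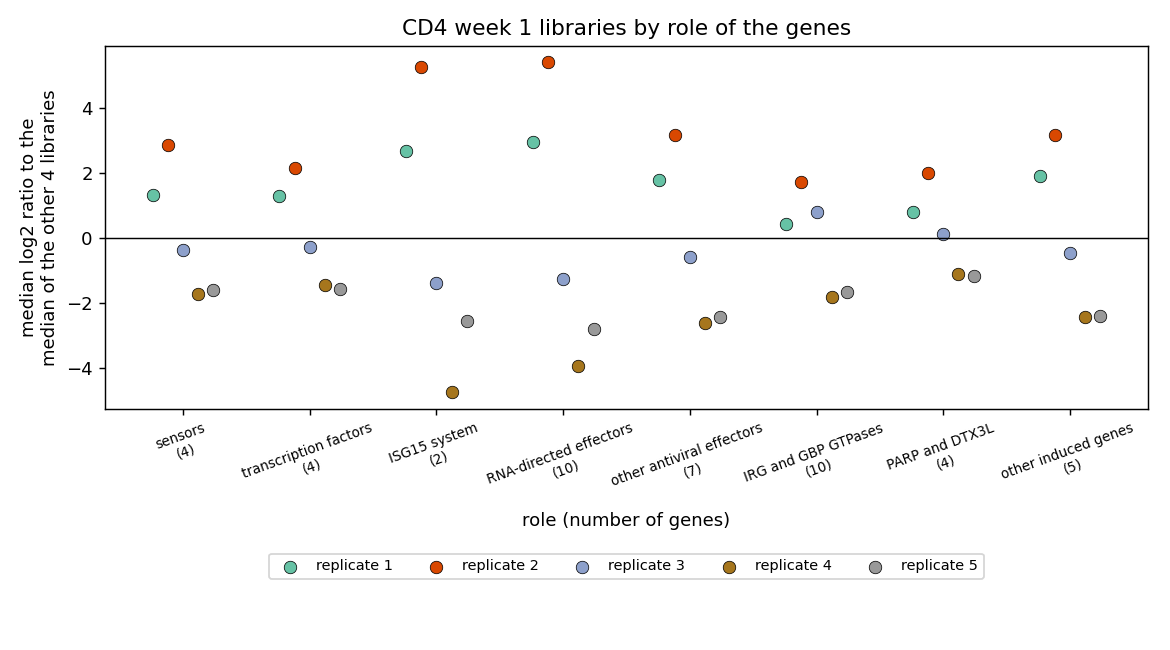
Median log2 ratio of the genes of each role in each CD4 week 1 library to the median of the other 4 libraries (CPM + 0.1 each); points are replicates and numbers in brackets are genes. Replicate 2 is highest in every role, and replicate 3 lies above 0 for the GTPases and below 0 for the RNA-directed effectors.

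In CD8 cells none of the 46 genes rose or fell between week 1 and week 4, although 17.1% of all tested genes rose and 16.4% fell. The median log2 fold change of the set was -0.10, against 0.03 over all genes, with 18 values above 0 and 28 below. One gene was at an unadjusted p under 0.05, Samd9l. It was at 297, 284, 449, 410.1 and 399.8 CPM in week 1 and 851, 886, 622, 464 and 442 CPM in week 4 (log2 change of 0.83, SE 0.36, edgeR adjusted p = 0.086). Replicates 1 to 4 of week 4 lay above all week 1 libraries, and replicate 5 lay within their range. DESeq2 called no gene either, while it called 17.2% of all genes higher and 18.7% lower. Limma-voom with quality weights called 3 genes higher, Parp12, Gbp4 and Ifi35, and none lower, against 29.2% and 26.5% of all genes, and put the median of the set at 0.23.

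The groups did not overlap for 2 of the 46 genes, Oas3 and Gbp4, both higher in week 4, where 11% of all genes were higher without overlap and 9.78% lower. Oas3, the longest of the oligoadenylate synthetases, was at 146, 181, 200.4, 247 and 250.2 CPM in week 1 and 271, 298, 275, 256 and 301 CPM in week 4 (log2 change of 0.45, SE 0.67, edgeR adjusted p = 0.633). The libraries of CD4 cells spread wider for this gene, at 216, 744, 84.5, 29.8 and 40.5 CPM in week 1 and 52.5, 282, 65.4, 33.8 and 103 CPM in week 3. Gbp4 was at 394, 369, 434, 334 and 296 CPM in CD8 week 1 and 588, 568, 445, 447 and 546 CPM in week 4 (log2 change of 0.51, SE 0.25, edgeR adjusted p = 0.127). The spread shared by all 4 groups in the model holds that of CD4 week 1. With the CD8 groups alone in the fit, Gbp4, Samd9l, Oas3 and Parp12 rose and Igtp fell, while 15.7% of all genes rose and 17.1% fell.

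Without CD8 week 1 replicate 3, in which 41 genes were highest, the median log2 fold change of the set was 0.29 and again none passed the test, where 21.1% of all genes rose and 18.7% fell. The CD8 titles fall into 2 ranges of numbers, and within the first range (replicates 1 to 3 of each time) 2 genes, Samd9l and Oas3, rose, with a median of -0.36, where 1.85% of all genes rose and 2.31% fell. Within the second range (replicates 4 and 5) 11 genes rose and 4 fell, with a median of 0.16, where 24.1% of all genes rose and 25.1% fell. With the range of the CD8 titles as a term in the fit of all groups none passed, against 16.7% of all genes higher and 16.2% lower, and the median was -0.13. What the ranges stand for is not given in the labels.

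The difference between the long-term changes in CD8 and CD4 cells passed the test for none of the 46 genes. Over all genes 0.248% had a higher and 0.406% a lower change in CD8 cells. The median difference of the set was 1.19 on the log2 scale, with all 46 values above 0. At an unadjusted p under 0.05 there were 5 genes. DESeq2 also called none, against 1.17% of all genes higher and 1.34% lower, and so did limma-voom, against 3.93% and 3.27%, with a median of 0.59. Without CD4 week 1 replicate 2 the median difference was 0.24, and again no gene was called, at 0.297% of all genes higher and 0.528% lower. No gene was then at an unadjusted p under 0.05. Both changes entered this difference with their own week 1 libraries, and without CD8 week 1 replicate 3 the median was 1.45. With it left out together with CD4 week 1 replicate 2 it was 0.51. The smallest adjusted p belonged to Zbp1 (log2 change of 1.88, SE 0.70, edgeR adjusted p = 0.267).

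At week 1, 4 of the 46 genes were lower in CD8 than in CD4 cells, none was higher and 42 did not pass the test. Over all genes 19.1% were higher and 19% lower, a larger share than in the set. The median log2 fold change of the 46 genes was -0.66, with 3 values above 0, whereas limma-voom with quality weights put it at 0.29, with 32 values above 0. The 4 genes were Ifi35, Parp12, Ifi44 and Oas2. Ifi35 encodes a protein with a leucine zipper that takes part in innate signalling. It was at 61.6, 62.6, 92.4, 58.9 and 58.9 CPM in CD8 week 1 and 113, 200.2, 115, 73.9 and 72.7 CPM in CD4 week 1, 1.72-fold lower in CD8 cells (log2 change of -0.78, SE 0.23, edgeR adjusted p = 0.0123). All CD8 libraries but replicate 3 lay below all CD4 libraries. In the long-term groups Ifi35 was at 63.5, 58.2, 84.03, 81.3 and 104 CPM in CD8 and 80.7, 75.8, 86.4, 82.1 and 63.2 CPM in CD4 cells, and these overlapped.

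Parp12 encodes an ADP-ribosyltransferase that restricts RNA viruses. It was at 11.04, 8.999, 28.5, 18.4 and 18.8 CPM in CD8 week 1 against 35.02, 133, 32.2, 14.96 and 11.9 CPM in CD4 week 1 (log2 change of -1.41, SE 0.49, edgeR adjusted p = 0.0309). The ranges overlapped, and replicate 2 of CD4 week 1 lay far above all others. In the long-term groups it was at 29.5, 24.1, 28.5, 30.6 and 42.2 CPM (CD8) and 19.6, 36.1, 29.1, 19.9 and 23.7 CPM (CD4). Ifi44 was at 0.467, 0.656, 4.51, 2.76 and 1.88 CPM in CD8 week 1 and Oas2 at 0.467, 1.19, 13.4, 3.75 and 3.39 CPM, against the CD4 values given above (log2 change of -4.67, SE 1.71, edgeR adjusted p = 0.0378 for Ifi44). For Oas2 the test gave log2 change of -4.07, SE 1.57, edgeR adjusted p = 0.0471. Both genes overlapped between the cell types.

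Without CD4 week 1 replicate 2, Ifi35 kept its call, Parp12, Ifi44 and Oas2 lost theirs, and Mx1 was higher in CD8 cells. Over all genes 20% were then higher and 18.9% lower. The median log2 fold change of the set changed sign, from -0.66 to 0.17. Ifi35 was then at -0.49 (adjusted p = 0.0451), Parp12 at -0.46 (adjusted p = 0.292), Ifi44 at -0.71 (adjusted p = 0.707), Oas2 at -1.15 (adjusted p = 0.507) and Mx1 at 2.40 (adjusted p = 0.0469) on the log2 scale. With CD8 week 1 replicate 3 left out instead, the median of the set was -0.92, with all 46 values below 0. With both libraries left out it was -0.26, with 17 values above 0 and 29 below. In that fit Ifi35 and Cmpk2 were called lower in CD8 cells, and Mx1 was not called. Of all 13426 genes tested there, 3096 were higher and 3102 lower. Leaving out CD8 week 1 replicate 1, 2, 4 or 5 left 1 gene lower, which was Ifi35 each time, where 16.2%, 16%, 16.3% and 16.2% of all genes were lower. Leaving out CD8 week 1 replicate 3 gave 12 lower genes (all genes 23%). Leaving out CD4 week 1 replicate 4 gave 8 and replicate 5 gave 9 (all genes 16.5% and 17.9%), while replicate 1 gave 3 and replicate 3 gave 5 (all genes 15.7% and 18.1%). DESeq2 called 6 genes lower, with 19.2% of all genes. Limma-voom with quality weights called 4 higher and 1 lower, with 28.9% and 28% of all genes.

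After long culture none of the 46 genes passed the test between CD8 and CD4 cells in the fit of all groups. Over all genes 17.7% were higher and 15% lower in CD8 cells. The median log2 fold change of the set was 0.44, with 38 values above 0, and 6 genes were higher at an unadjusted p under 0.05. Libraries did not overlap for 9 genes, each higher in CD8 cells, where 11.3% of all genes were higher and 9.3% lower without overlap. These were Zbp1, Mx1, Irgm1, Gbp4, Gbp6, Gbp7, Gbp9, Parp9 and Dtx3l. Mx1 was at 49.1, 53.1, 42.7, 53 and 54.9 CPM in CD8 week 4 against 2.23, 21.98, 3.598, 0.866 and 5.75 CPM in CD4 week 3, a 7.33-fold difference (log2 change of 2.87, SE 1.14, edgeR adjusted p = 0.0608). Gbp9 was at 212, 210.1, 135, 157 and 176 CPM against 50.5, 104, 66.2, 48.98 and 91.9 CPM (log2 change of 1.3, SE 0.50, edgeR adjusted p = 0.053). Both genes were thus separated between the groups and missed the threshold in the fit that also holds the week 1 groups.

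With the 2 long-term groups alone in the fit, 12 genes were higher in CD8 cells and none was lower, against 15.2% and 16.3% of all genes. Without CD4 week 3 replicate 2 there were 4, namely Mx1, Oas3, Gbp9 and Usp18, where 22.4% of all genes were higher. Without replicate 2 of both CD4 groups there were 10, where 23.2% of all genes were higher. DESeq2 called 2 genes higher, Gbp9 and Mx1, with 19.1% of all genes. Limma-voom with quality weights called 16, with 28% of all genes, and put the median of the set at 0.74. Usp18, the protease that removes Isg15 from proteins and dampens the receptor, was at 23.4, 29.1, 17.4, 23.9 and 30.95 CPM in CD8 week 4 and 0.983, 25.6, 2.61, 0.592 and 8.2 CPM in CD4 week 3 (log2 change of 1.72, SE 1.07, edgeR adjusted p = 0.229). Replicate 2 of CD4 week 3 lay within the CD8 range and the other 4 below it.

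Per kilobase of exon, which allows levels of different genes to be set side by side, Ifi27l2a, Igtp and Gbp2 were among the 3 highest genes of the set in 3 of the 4 groups by their medians. In CD8 week 4 Samd9l took the third place, after Ifi27l2a at 263.6 and Igtp at 214 CPM per kb. In CD4 week 3 Igtp (137 CPM per kb), Gbp2 (114) and Ifi27l2a (82.5) led, and in CD4 week 1 Ifi27l2a (325), Igtp (296) and Gbp2 (180.4). Ifi44, Mx2 and Oasl1 were the 3 lowest in each of the 4 groups, all at or below 0.597 CPM per kb. Whether neighbours in this order, such as Ifi27l2a and Igtp, differ was not tested. The libraries of CD4 week 1 ran from 47.9 to 908 CPM for Ifi27l2a.

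Besides the 46 genes, 88 further genes of the pathway were examined, of which 75 passed the filter. In CD8 cells 10 of the 75 rose between week 1 and week 4, 5 fell and 60 did not pass the test. In CD4 cells 3 rose, 9 fell and 63 did not pass. These shares can be read against the 17.1 and 16.4% of all genes for CD8 and 7.67 and 8.8% for CD4 given above. Without CD4 week 1 replicate 2 the counts in CD4 cells were 3 and 3.

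Transcripts of the type I and type III interferon genes examined were almost absent. Over the 9 type I and type III interferon genes examined, 17 counts were found in all 20 libraries together, and 15 of them lay in CD4 week 1 replicate 2. There, Ifna2 had 5 counts, Ifnb1 4, Ifna4 3, and Ifna1, Ifnl2 and Ifnl3 1 each, out of 21.9 M counts in the library. The 2 others were Ifnl3 counts in CD8 week 1 replicate 3, the library in which 41 of the 46 genes were highest in its group. No count of these 9 genes was found in the 18 remaining libraries, and 3 of them, Ifna5, Ifnk and Ifne, had no count at all. Such counts are close to the limit of detection, and whether they bear on the levels of the response genes was not tested. Ifna genes other than Ifna1, Ifna2, Ifna4 and Ifna5 were not examined, and reads that map to several genes were not counted.

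Ifng, the gene of interferon gamma, was at 5.81, 7.21, 6.86, 3.15 and 3.54 CPM in CD8 week 1 and 2, 2.87, 1.24, 0.643 and 1.52 CPM in CD8 week 4 (log2 change of -1.68, SE 0.75, edgeR adjusted p = 0.0908). It was at 0.124, 0.658, 1.65, 0.565 and 0.0833 CPM in CD4 week 1 and 1.07, 5.76, 0.2998, 0.456 and 0.211 CPM in CD4 week 3 (log2 change of 1.36, SE 0.80, edgeR adjusted p = 0.247). In CD4 week 1 its highest library was replicate 3, in which Irf1 was highest and Gbp2 second. In CD4 week 3 its highest library was replicate 2, where the median ratio of the GTPases to the other libraries was 0.871. Of the 10 GTPases, 8 were highest in CD4 week 3 replicate 3, with Ifng at 0.2998 CPM, and 2 in replicate 2. Whether Ifng bears on the levels of these genes was not tested. At week 1 Ifng was higher in CD8 than in CD4 cells without overlap (log2 change of 3.13, SE 0.81, edgeR adjusted p = 0.00559).

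Receptors decide which interferons a cell can sense. In CD8 cells 3 of 5 tested receptor genes rose, Ifngr2, Il10rb and Ifnar2, and none fell, while in CD4 cells none of the 5 passed. Ifnar2, a chain of the type I receptor, was at 74.5, 73.8, 85.9, 78.2 and 77.99 CPM in CD8 week 1 and 96.9, 93.4, 83.7, 109.7 and 131 CPM in week 4 (log2 change of 0.40, SE 0.12, edgeR adjusted p = 0.017). Leaving out CD8 week 4 replicate 5 ended the call (edgeR adjusted p = 0.0581). In CD4 cells it was at 66.01, 74.5, 53.5, 56.8 and 47.8 CPM in week 1 and 52.2, 42.9, 55.1, 49.9 and 45.99 CPM in week 3 (log2 change of -0.28, SE 0.12, edgeR adjusted p = 0.117). In the long-term groups it was higher in CD8 cells without overlap (log2 change of 1.07, SE 0.12, edgeR adjusted p = 3.15e-06). Ifnar1, the other chain, was at 199, 210.1, 218, 219 and 212 CPM in CD8 week 1 and 245, 248.9, 214, 232 and 270.1 CPM in week 4, and at 260.2, 248, 224, 218 and 186 CPM in CD4 week 1 and 187, 139, 209.7, 218 and 186 CPM in week 3. It did not pass the test in either cell type (adjusted p = 0.163 and 0.0775). CD4 week 1 replicate 2 was within the range of its group for Ifnar1 and only its highest library for Ifnar2, at 74.5 against 66.01 CPM in replicate 1.

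Ifngr1 and Ifngr2 encode the chains of the interferon gamma receptor. Ifngr2 was at 23.6, 26.3, 30.8, 34.1 and 31.5 CPM in CD8 week 1 and 51.7, 42.8, 52.03, 64.3 and 45.5 CPM in week 4, without overlap (log2 change of 0.81, SE 0.16, edgeR adjusted p = 0.00134). In CD4 cells it was at 25.6 ± 3.08 CPM in week 1 and 30.6 ± 7.299 CPM in week 3 (SD, n = 5 each), and the change did not pass the test (edgeR adjusted p = 0.269). Ifngr1 was at 551 ± 71.5 and 687 ± 61.7 CPM in CD8 week 1 and week 4, and at 741 ± 72.4 and 617 ± 136 CPM in CD4 week 1 and week 3 (SD, n = 5 each). Neither of its changes passed the test. Il10rb, a chain shared by the receptors of type III interferon and IL-10, rose from 82.5 ± 9.69 to 121 ± 9.44 CPM in CD8 cells (SD, n = 5 each; log2 change of 0.55, SE 0.12, edgeR adjusted p = 0.00186).

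Jak1, the kinase shared by all interferon receptors and by those of IL-7 and IL-15, rose in both cell types. It was at 713, 725, 847, 735 and 709 CPM in CD8 week 1 and 1054, 1082, 1112, 1087.1 and 1016 CPM in week 4 (log2 change of 0.52, SE 0.08, edgeR adjusted p = 1.53e-04). In CD4 cells it was at 733, 612, 609.6, 753 and 664 CPM in week 1 and 890.3, 788, 896, 920.4 and 1015 CPM in week 3 (log2 change of 0.42, SE 0.08, edgeR adjusted p = 0.00258). The long-term libraries lay above all week 1 libraries in each cell type, and the call held without any single library. Tyk2, the kinase bound to Ifnar1, rose in CD8 cells from 116 ± 13.4 to 153 ± 18.8 CPM (SD, n = 5 each; log2 change of 0.40, SE 0.10, edgeR adjusted p = 0.00585). In CD4 cells Tyk2 did not pass (edgeR adjusted p = 0.281). Jak2 was at 180.4, 304, 167, 159.6 and 173 CPM in CD4 week 1, where replicate 2 was the highest, and at 166, 139.9, 137, 146 and 162 CPM in week 3 (log2 change of -0.39, SE 0.14, edgeR adjusted p = 0.0688).

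**Figure D5:**
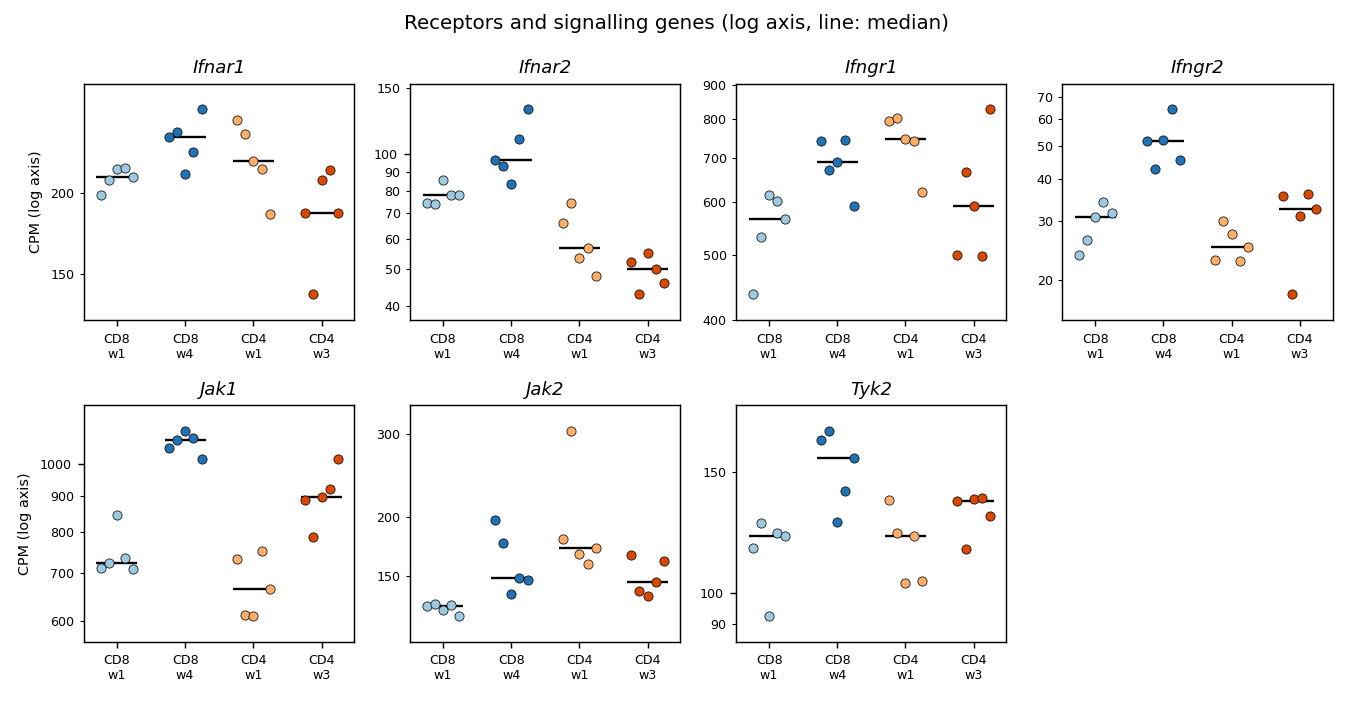
CPM on a log axis of receptor and signalling genes in the 20 libraries by group (w, week), replicate 1 on the left to 5 on the right; the line is the group median. Jak1 lies higher after long culture in both cell types, Ifnar2 is separated between CD8 week 4 and CD4 week 3, and Jak2 shows CD4 week 1 replicate 2 at 304 CPM.

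Among adaptors and other IRF genes 3 fell in both cell types, Tmem173, Irf8 and Mb21d1. Tmem173 encodes STING, the adaptor of DNA sensing. It fell from 126 ± 10.7 to 103 ± 4.64 CPM in CD8 cells (log2 change of -0.29, SE 0.09, edgeR adjusted p = 0.0181) and from 157 ± 24.98 to 109 ± 5.76 CPM in CD4 cells (SD, n = 5 each; log2 change of -0.52, SE 0.09, edgeR adjusted p = 0.00156). Mb21d1 encodes cGAS, the DNA sensor upstream of STING. It fell from 36.6 ± 3.22 to 22.1 ± 3.29 CPM in CD8 cells (log2 change of -0.73, SE 0.25, edgeR adjusted p = 0.0306) and from 27.02 ± 7.85 to 15.5 ± 7.87 CPM in CD4 cells (SD, n = 5 each; log2 change of -0.80, SE 0.25, edgeR adjusted p = 0.036). The calls on Mb21d1 were lost in CD8 cells when any 1 of 5 libraries was left out, CD8 week 1 replicates 1, 2 and 5 and CD8 week 4 replicates 4 and 5. In CD4 cells they were lost without CD4 week 1 replicate 2, 3 or 5 or CD4 week 3 replicate 1, 3, 4 or 5.

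Irf8, a transcription factor that acts in effector T cells and in myeloid cells, was at 122, 113, 206, 99.2 and 91.8 CPM in CD8 week 1 and 44.5, 48.9, 20.2, 15.6 and 22.7 CPM in week 4 (log2 change of -2.06, SE 0.44, edgeR adjusted p = 0.00204). In CD4 cells it was at 20.04, 37.4, 39.3, 13.4 and 14.1 CPM in week 1 and 4.69, 10.5, 2.48, 2.73 and 2.62 CPM in week 3 (log2 change of -2.43, SE 0.46, edgeR adjusted p = 0.00288). No long-term library reached the lowest week 1 library of its cell type. Without CD4 week 1 replicate 2 the change in CD4 cells was -2.23 (adjusted p = 0.00754). Ikbke and Irf3, a kinase and a transcription factor that induce interferon genes, rose in CD8 cells, by log2 fold changes of 0.64 (SE 0.16, adjusted p = 0.00633) and 0.33 (SE 0.10, adjusted p = 0.0138). The difference of their changes between the cell types did not pass (adjusted p = 0.303 and 0.555).

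Among 6 negative regulators, Ptpn6, the phosphatase SHP-1, fell in CD8 cells from 199.8 ± 30.98 to 130.1 ± 7.93 CPM (log2 change of -0.62, SE 0.14, edgeR adjusted p = 0.0038) and in CD4 cells from 279 ± 52.9 to 166 ± 38.5 CPM (SD, n = 5 each; log2 change of -0.75, SE 0.14, edgeR adjusted p = 0.00347). Socs3 rose in CD8 cells from 59.9 ± 8.55 to 102 ± 34.5 CPM (SD, n = 5 each; log2 change of 0.77, SE 0.26, edgeR adjusted p = 0.0305), a call lost without CD8 week 1 replicate 1 or 2 or CD8 week 4 replicate 4 or 5. Socs1, an inhibitor of the Jak kinases that interferon induces, was at 119.6, 176, 142, 144 and 170.1 CPM in CD4 week 1 and 136, 106, 147, 133 and 74.3 CPM in week 3 (log2 change of -0.34, SE 0.14, edgeR adjusted p = 0.108). Replicate 2 was the highest there by 176 against 170.1 CPM in replicate 5. In CD8 cells it did not pass (edgeR adjusted p = 0.266).

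Of 12 antigen presentation genes, 2 fell in CD4 cells, Psmb9 and Psme2, parts of the immunoproteasome and its activator. Psmb9 was at 246, 396, 294, 158 and 159 CPM in CD4 week 1 and 161, 159, 178, 154 and 149.7 CPM in week 3 (log2 change of -0.64, SE 0.19, edgeR adjusted p = 0.0308), and Psme2 fell from 291 ± 86.2 to 209.8 ± 13.9 CPM (SD, n = 5 each; log2 change of -0.47, SE 0.15, edgeR adjusted p = 0.0428). Both calls were lost without CD4 week 1 replicate 2 (log2 change -0.42, edgeR adjusted p = 0.0946, for Psmb9 and -0.36, edgeR adjusted p = 0.119, for Psme2). They were also lost without CD4 week 1 replicate 3 or CD4 week 3 replicate 1, 3, 4 or 5, and that on Psme2 without CD4 week 1 replicate 1. In CD8 cells 1 of the 12 rose, Nlrc5, the transactivator of MHC class I genes, from 658 ± 28 to 935 ± 157 CPM (SD, n = 5 each; log2 change of 0.51, SE 0.15, edgeR adjusted p = 0.0152).

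Of 35 further induced genes tested, 2 rose and 3 fell in CD4 cells, and 1 rose and 1 fell in CD8 cells. Ube2l6, which encodes the enzyme that carries Isg15 to its targets, fell in both. It was at 5.55, 6.496, 6.04, 9.69 and 9.18 CPM in CD8 week 1 and 1.36, 1.41, 0.362, 0.281 and 0.435 CPM in week 4, without overlap (log2 change of -3.26, SE 1.03, edgeR adjusted p = 0.021). In CD4 cells it was at 24.6, 133, 16.2, 1.37 and 1.83 CPM in week 1 and 1.07, 7.03, 1.63, 0.456 and 1.65 CPM in week 3 (log2 change of -3.90, SE 0.98, edgeR adjusted p = 0.0136). The CD4 call was lost without CD4 week 1 replicate 2 (log2 change -2.21, edgeR adjusted p = 0.0695) and the CD8 call when CD8 week 4 replicate 4 was left out (edgeR adjusted p = 0.052). Gbp10 and the chemokine gene Cxcl10 also fell in CD4 cells (log2 change of -3.07, SE 0.93, edgeR adjusted p = 0.0315 for Gbp10). For Cxcl10 the values were log2 change of -4.03, SE 1.24, edgeR adjusted p = 0.0343. Both lost the call without CD4 week 1 replicate 2 or CD4 week 3 replicate 1, 3, 4 or 5, and Cxcl10 also without CD4 week 1 replicate 3. Cxcl10 was at most 6.40 CPM in any library.

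Ifitm1 and Ifitm2, which encode membrane proteins that block viral entry, rose in CD4 cells. Ifitm1 was at 0.996, 1.41, 9.098, 7.34 and 0.417 CPM in CD4 week 1 and 48.3, 52.3, 51.2, 26.9 and 3.42 CPM in week 3 (log2 change of 3.25, SE 0.82, edgeR adjusted p = 0.0136). Ifitm2 was at 3.36, 7.95, 15.6, 11.9 and 3.46 CPM in week 1 and 49.5, 80.8, 49.9, 24.3 and 12.2 CPM in week 3 (log2 change of 2.36, SE 0.61, edgeR adjusted p = 0.0154). For both genes 4 of the 5 week 3 libraries lay above all week 1 libraries, and replicate 5 did not. The calls held without any single library, CD4 week 1 replicate 2 included (log2 change 3.04, edgeR adjusted p = 0.0335, for Ifitm1 and 2.34, edgeR adjusted p = 0.0344, for Ifitm2). Replicate 2 was not high for these genes in CD4 week 1, in contrast to the 46 genes. In CD8 cells neither passed, at adjusted p = 0.222 and 0.237. Sp110, a nuclear body protein gene, rose in CD8 cells (log2 change of 0.37, SE 0.12, edgeR adjusted p = 0.0229), a call lost without CD8 week 1 replicate 4 or 5 or CD8 week 4 replicate 5.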

How the data were processed

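Read counts per gene in 20 libraries were deposited by the authors as raw counts, made with STAR on mm10 per the submitters' processing notes and with featureCounts 1.6.3 at strand setting 2 per the file headers. Reads that map to several genes were not counted there. The authors' exon lengths from the same table, the other deposited measure, served for levels per kilobase. Groups came from the labels. Genes passing filterByExpr (13290 of 49671) were tested with edgeR 4.0.16 (R 4.3.3) by its quasi-likelihood test, all 4 groups sharing 1 model with TMM factors, with Benjamini-Hochberg adjustment over all of them and a threshold of 0.05. SE was taken as the size of the log2 change over the root of F. DESeq2 1.42.0, limma 3.58.1, other scalings, filters and libraries left out were alternatives. Totals of 13.3 to 28.3 M counts set the precision, and the Wilson interval (95%) covers counting error only. Scripts were tested on simulated data. Genes described library by library were those called in a comparison and the 6 with the largest ratio of CD4 week 1 replicate 2 to the others, with up to 3 called genes per direction of each pathway list and a fixed list of receptor and signalling genes. Irf1, Irf7, Gbp2, Gbp4, Gbp9, Ifit3, Usp18, Oas3 and Samd9l were added after their values were seen. Members and lists were chosen with earlier results of these data known. Replicate numbers follow accession order and pair no libraries. The values of 1 pathway gene are not reported here.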

Additional observations from a re-analysis of the deposited data

Results flagged for a closer look

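In groups of 5 libraries, a library is named here where its gap to the nearest other library exceeded 0.71 of the range of the group. For normally distributed values, chance alone names about 1 in 20 groups for a single gene. The gaps were taken on CPM without a log scale, and whether these values are normally distributed was not tested. The rate of 1 in 20 is also no yardstick for genes that move together, and the share over all genes was not counted. In CD8 week 1, replicate 3 stood apart as the highest library for 30 of the 46 genes, and in CD4 week 1 replicate 2 did for 18. In CD8 week 4, replicate 5 was far above the rest for 5 of the 46 genes, and 1 gene had a library far below the rest. In CD4 week 3, replicate 2 did so for 5 genes and replicate 3 for 1.

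Of the genes described above, CD4 week 1 replicate 2 stood apart in Isg15 (287 CPM), Parp12 (133 CPM), Ifi44 (249.8 CPM), Oas2 (334 CPM), Rsad2 (264 CPM), Oas1a (72.01 CPM), Oasl1 (48.4 CPM), Mx1 (265 CPM), Ifit3 (407 CPM), Usp18 (214 CPM), Oas3 (744 CPM), Jak2 (304 CPM), Ube2l6 (133 CPM), Gbp10 (93.9 CPM) and Cxcl10 (6.397 CPM). CD8 week 1 replicate 3 stood apart in Zbp1 (204 CPM), Isg15 (59.3 CPM), Stat2 (215 CPM), Ifi35 (92.4 CPM), Oas2 (13.4 CPM), Rsad2 (58.7 CPM), Oasl1 (9.67 CPM), Mx1 (149 CPM), Irf7 (194 CPM), Ifit3 (109 CPM), Usp18 (96.1 CPM), Jak1 (847 CPM), Il10rb (99.6 CPM), Irf8 (206 CPM) and Cxcl10 (5.39 CPM).

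CD4 week 3 replicate 2 was apart as the highest library in Isg15 (14.8 CPM), Ifi44 (25.7 CPM), Mx1 (21.98 CPM), Oas3 (282 CPM), Ifng (5.76 CPM), Irf8 (10.5 CPM), Mb21d1 (29.1 CPM), Ptpn6 (233 CPM), Ube2l6 (7.04 CPM) and Cxcl10 (0.352 CPM), and as the lowest in Ifngr2 (18.1 CPM). CD4 week 3 replicate 3 was apart in Igtp (414 CPM). CD8 week 4 replicate 5 was apart in Irf7 (104 CPM), Il10rb (138 CPM), Tmem173 (111 CPM) and in its median log2 ratio to the other libraries of the group over the 46 genes, which was 0.41.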

How the results depend on the processing

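The counts of genes past the threshold depended on the libraries and the tool, and the cause was not tested. With each library left out in turn, genes lower in CD4 week 3 than week 1 numbered 0 to 22, genes lower in CD8 than CD4 cells at week 1 numbered 1 to 12 and genes higher there 0 to 1, and genes higher in CD8 cells after long culture 0 to 4. The median difference of the long-term changes ranged from 0.24 to 1.5. DESeq2 gave 18 lower genes for CD4 cells over time and 2 higher after long culture. Limma-voom gave 3 higher for CD8 cells over time, 2 lower for CD4 cells, 4 higher and 1 lower at week 1, and 16 higher after long culture, and it turned the week 1 values of Ifi44 to 1.73 and Oas2 to 0.02. With only the groups compared there were 4 higher and 1 lower for CD8 cells over time, 0 lower for CD4 cells, 1 lower at week 1 and 12 higher after long culture. In that week 1 comparison 2131 of all 12400 genes tested were lower. Title range A alone gave 2 higher in CD8 cells, and range B 11 higher and 4 lower. Without the second CD4 library of both times there were 1 lower in CD4 cells, 3 higher and 0 lower at week 1 and 10 higher after long culture. Of all 13423 genes tested in that setting, 1702 were lower in CD4 cells over time. In CD8 against CD4 cells, 3126 were higher and 2504 lower at week 1, and 3111 were higher after long culture. Of the alternatives chosen after seeing the data, leaving out CD4 week 1 libraries 1 and 2 gave 1 higher and 0 lower, a median of 0.25, Isg15 at 0.16 and Stat2 at 0.02. Leaving out the third CD8 and second CD4 library of week 1 gave 2 lower in CD8 than CD4 cells at week 1, Ifi35 and Cmpk2, and 0 higher. Of all 13426 genes tested there, 3102 were lower and 3096 higher. No paired analysis was made because the labels give no replicate numbers, and those used here follow accession order. In that order week 1 and long-term libraries alternate. The sum of Cd8a and Cd8b1 was lowest in replicate 2 (1222 and 1018 CPM) and highest in replicate 3 (2066 and 2727 CPM) at both CD8 times. Whether such libraries share a source is not given, and the tests treat all libraries as independent. Genes with few counts in most libraries, such as Ifi44 and Oasl1, are limited by depth.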
